A study of Oryza sativa with 6 samples.

Results

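Genes for SPX proteins and for phosphate transporters of the PHT1 family were followed in rice leaves that overexpress *OsMADS29*. The 8 names *SPX1*, *SPX2*, *SPX3*, *SPX4*, *PT1*, *PT2*, *PT4* and *PT8* were looked up among the symbols and synonyms of a rice gene table, with a leading Os dropped. They led to 10 genes, out of 17905 genes with a probe set on the array, because *PT1* is also a synonym of *PT3* and *PT2* is also a synonym of *GRF4*. *GRF4* encodes a growth-regulating factor and not a transporter, and it was kept only because it shares the name. The 10 genes had 16 probe sets, and a gene with several is described by the one with the highest mean over the 6 arrays, with the others beside it.

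The samples were leaf RNA from MADS29OX plants and from wild-type (WT) plants of *Oryza sativa* var. PB1, with 3 arrays for each group and 1 sample per array. In MADS29OX plants the *OsMADS29* cDNA is driven by a ubiquitin promoter, which is active in most tissues and not only in the seed, where this MADS-box factor is normally found. Both groups carried the same developmental label, leaf 3 and leaf 4 counted from the flag leaf, and the plants grew in a soil and compost mix to which a nitrogen, phosphorus and potassium fertilizer had been added. The paper describes MADS29OX plants as severely stunted, with small, thin leaves, affected roots and early flowering. The shared label therefore does not show that leaf age was the same. The series calls the samples biological replicates without saying whether separate plants or lines were sampled, so p-values measure the spread between these samples only.

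SPX proteins carry the domain that gives them their name, which binds inositol pyrophosphates and lets the protein report the phosphate status of the cell. When phosphate is ample, rice SPX1 and SPX2 bind the transcription factor PHR2 in the nucleus, and SPX4 holds it outside the nucleus. When phosphate is scarce PHR2 is set free, and its targets include several *SPX* genes themselves and genes of the PHT1 family. PHT1 proteins are proton-coupled carriers of the plasma membrane that take up phosphate at the root surface and move it between tissues.

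Each value is the intensity of a probe set, a group of short probes for one transcript, on the linear scale that was deposited. Intensities under 16, here called the floor, were set to 16 before log2 was taken. A probe set entered the limma fit if any array passed the floor, and p-values were adjusted over these 14238 probe sets by the Benjamini-Hochberg method. Calls required both a 2-fold change and an adjusted p no higher than 0.05. Log2 fold changes are MADS29OX minus WT throughout. Where no array of a group passed the floor, the value is set by the floor on that side. It bounds the change from below if all arrays of the other group passed the floor. The median log2 fold change of the 10045 tested genes was -0.01.

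*OsMADS29* itself (LOC4328443) had signals of 2016, 1788 and 3590 on the MADS29OX arrays, against 6.70, 6.37 and 6.64 on the WT arrays. This was at least 147-fold higher (adjusted p = 0.000139 from limma), so each array matched its label. Array medians lay between 5.953 and 5.998, and 21.6% to 21.9% of probe sets were above the floor. Log2 values correlated across probe sets at 0.936 to 0.969 between MADS29OX arrays, at 0.992 to 0.997 between WT arrays and at 0.877 to 0.899 between arrays of different groups. The median SD of log2 values, over 9302 probe sets with a mean above 32, was 0.253 in MADS29OX and 0.0817 in WT leaves. Of the leaf markers, 4 of 5 genes with a probe set were above the floor, and *RBCS1* was below it. Their summed signal was 22638 to 29964 in MADS29OX and 21084 to 21357 in WT leaves. Within that sum the markers differed, and *CAB2R* was called higher (log2 fold change 1.46, adjusted p = 0.00562 from limma). *RCA* was lower by less than 2-fold on its brightest probe set (-0.27, adjusted p = 0.0446 from limma), and *RBCS* and *GLO1* did not pass the test. Of the endosperm storage protein markers, 2 of 8 were above the floor, *GLUA2* and *GLB1*, and the summed signal was 213 to 248 in MADS29OX and 263 to 269.8 in WT leaves, and of 3 root markers 0 were above it. The part of these marker sums in the results was not tested.

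Of the 10 genes, 6 were above the floor on at least 1 array. *SPX1*, *SPX2* and *PT4* were lower in MADS29OX leaves and *PT1* was higher. Neither *SPX4* nor *PT8* passed the test. The other 4 genes, *SPX3*, *PT2*, *PT3* and *GRF4*, lay below the floor on every array. That is 3 lower and 1 higher of 6 tested, and over all 10045 tested genes 5.03% were called lower and 5.05% higher. The members were chosen with earlier results of these data known, and *PT4* was tested only through its WT arrays. Nothing particular to the members is therefore read from these counts. In whole leaf samples, fewer cells of a type and less RNA per cell cannot be told apart.

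**Figure D1:**
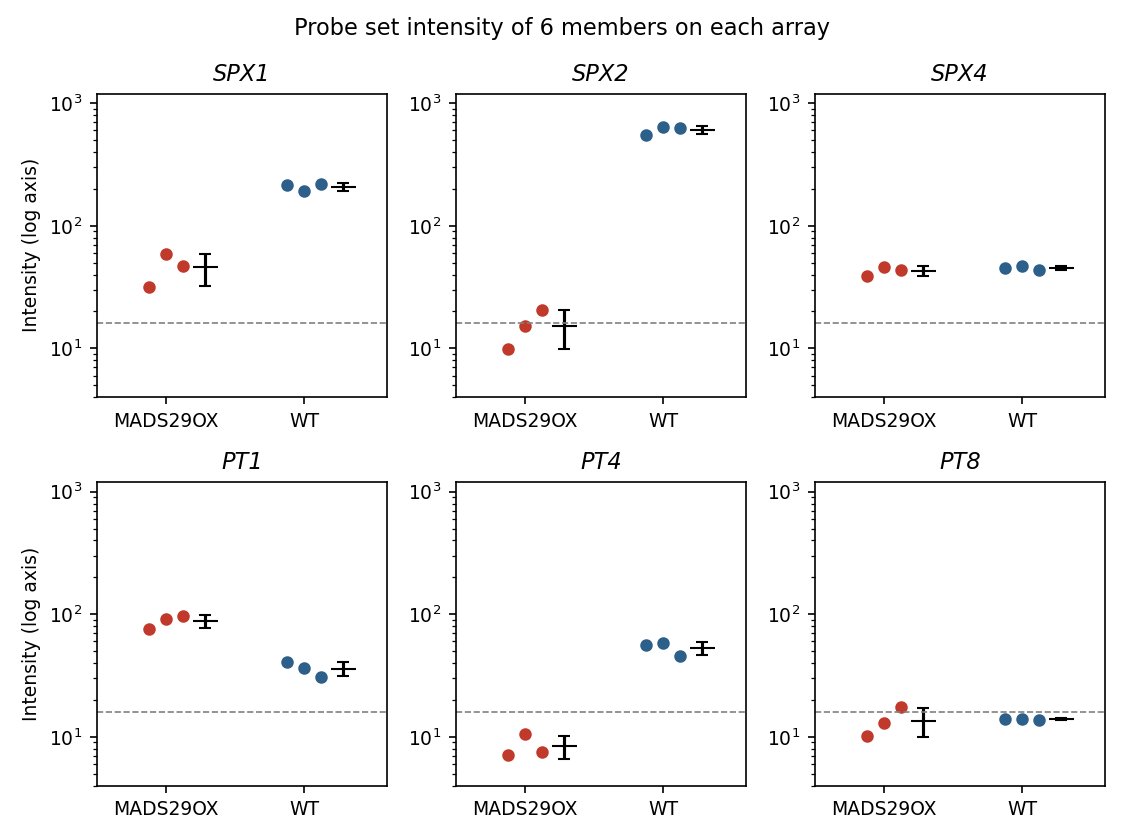
Intensity of the main probe set of the 6 tested members on each array, on a log axis, with MADS29OX (red) left of WT (blue), bars for the mean ± SD (n = 3) and a dashed line at the floor of 16. The points of the groups lie apart for *SPX1*, *SPX2*, *PT1* and *PT4*, and overlap for *SPX4* and *PT8*.

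*SPX2* (LOC4328654), whose product is a nuclear partner of PHR2, moved most. Its signals were 9.92, 15.2 and 20.6 on the MADS29OX arrays, against 550.2, 640.2 and 626 on the WT arrays. The lowest WT array was thus far above the highest MADS29OX array. The mean was 15.2 ± 5.33 in MADS29OX and 605 ± 48.3 in WT leaves (SD, n = 3 each), with 2 of 3 MADS29OX arrays below the floor. The log2 fold change was -5.12 (95% confidence interval -5.44 to -4.79, adjusted p = 6.36e-05 from limma), or 34.7-fold lower, and the floor sets part of this size. Among the 10045 tested genes, *SPX2* had rank 2 from the lowest log2 fold change and rank 1 by adjusted p. Raising 2 MADS29OX arrays to the floor also narrows the spread behind the interval and the rank by adjusted p. With a floor of 8, which all its arrays passed, its log2 fold change was -5.37 (adjusted p = 0.000405 from limma). Without the floor it was also -5.37 (adjusted p = 0.00528 from limma).

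*SPX1* (LOC4341465), whose product also binds PHR2 in the nucleus, fell too, by less. Its signals were 31.9, 58.6 and 46.7 on the MADS29OX arrays, against 214, 190.5 and 218 on the WT arrays. All arrays were above the floor and the groups did not overlap, so the size of this change does not rest on the floor. The mean was 45.7 ± 13.4 in MADS29OX and 208 ± 14.9 in WT leaves (SD, n = 3 each). This is a log2 fold change of -2.22 (95% confidence interval -2.78 to -1.67, adjusted p = 0.00185 from limma), which is 4.67-fold lower. Its rank was 61 from the lowest log2 fold change among the tested genes.

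The MADS29OX arrays differed from each other more than the WT arrays did for both genes. The coefficient of variation of the *SPX1* signal was 29.2% in MADS29OX and 7.19% in WT leaves, and that of *SPX2* was 35.0% in MADS29OX and 7.98% in WT leaves. The MADS29OX array with the lowest signal was replicate 1 for both, while the highest was replicate 2 for *SPX1* and replicate 3 for *SPX2*. For *SPX2* this spread lies around the floor, where signals carry little information.

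*SPX4* (LOC4334647), which encodes the SPX protein that keeps PHR2 out of the nucleus, is known for a transcript that does not respond to phosphate starvation as those of *SPX1* and *SPX2* do. Its signals were 38.7, 46.4 and 43.3 on the MADS29OX arrays, against 45.7, 46.7 and 43.6 on the WT arrays. The ranges overlapped, and the mean was 42.8 ± 3.87 in MADS29OX and 45.3 ± 1.61 in WT leaves (SD, n = 3 each). The log2 fold change was -0.08 (95% confidence interval -0.32 to 0.15, adjusted p = 0.554 from limma), an interval that does not reach a 2-fold change either way. A second probe set lay below the floor, at 8.40, 9.06 and 10.7 on the MADS29OX arrays and 9.39, 9.80 and 9.25 on the WT arrays. The *SPX4* probe set used here is of the kind whose probes may bind related transcripts.

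*SPX3* (LOC4348535), known in rice as a gene induced by phosphate starvation, had signals of 5.88 to 5.93 on the MADS29OX arrays and 5.87 to 5.89 on the WT arrays. These lie near the array medians, so its level was not measurable here and no comparison was made. The 4 SPX genes therefore divided into 2 lower genes, 1 that did not pass the test and 1 below the floor.

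**Figure D2:**
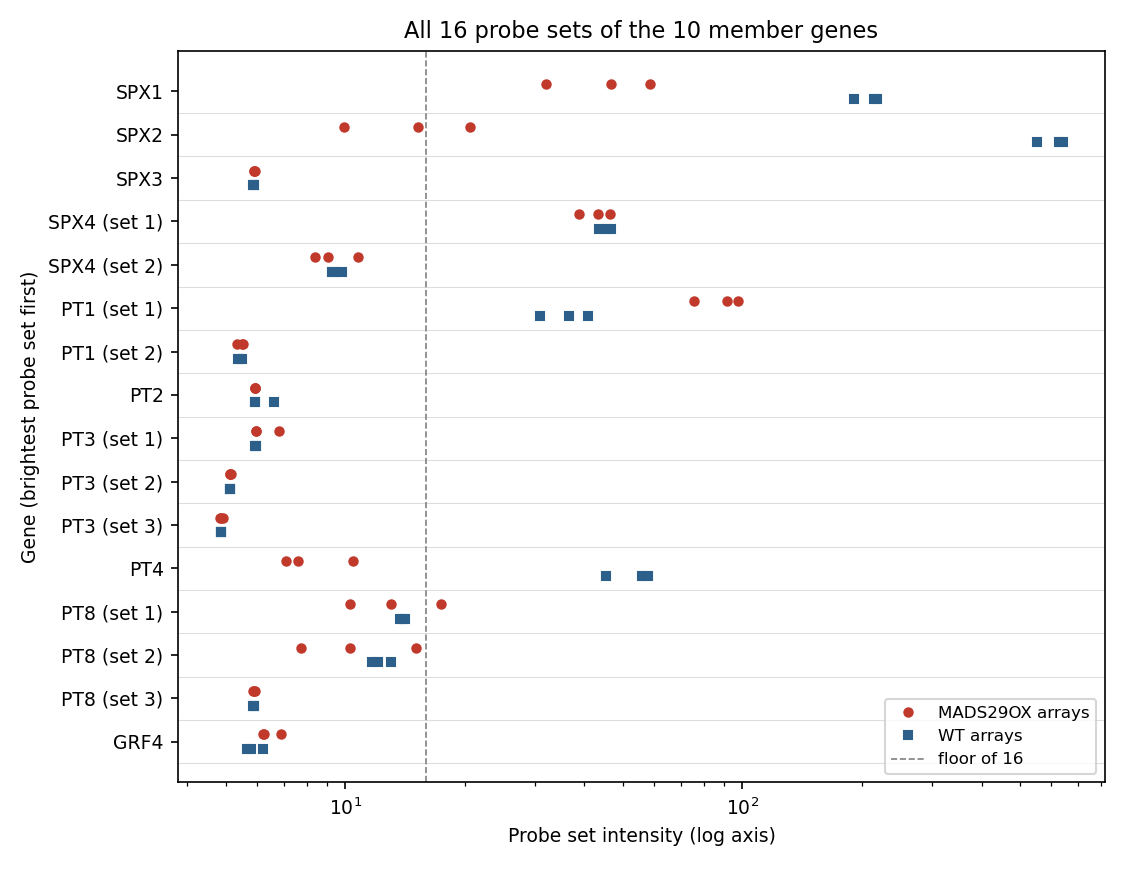
Intensity of all 16 probe sets of the 10 genes, on a log axis, with a red circle for each MADS29OX array above a blue square for each WT array and the floor of 16 dashed. The brighter probe set of *PT1* is above the floor on all 6 arrays and its second is below it on all 6, as are those of *SPX3*, *PT2*, *PT3* and *GRF4*.

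Among the transporters, *PT1* (*PHT1;1*, LOC4331635) encodes a PHT1 carrier expressed in both roots and shoots of rice. Its signals were 75.5, 91.3 and 97.5 on the MADS29OX arrays, against 40.9, 36.5 and 31.0 on the WT arrays. Each MADS29OX array was above each WT array, and all 6 were above the floor. The mean was 88.1 ± 11.3 in MADS29OX and 36.1 ± 4.94 in WT leaves (SD, n = 3 each). The difference on the log2 scale was 1.29 (95% confidence interval 0.92 to 1.65, adjusted p = 0.00272 from limma), which is 2.44-fold higher and rank 386 from the highest of the tested genes.

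The call of *PT1* depended on how its 2 probe sets were treated and on whether 16 was added before log2. The second had signals of 5.35 to 5.53 on the MADS29OX arrays and 5.37 to 5.49 on the WT arrays, below the floor on all of them, and thus showed no measurable level. Averaging both gave a log2 fold change of 0.64, and log2 of the value plus 16 gave 0.997. Neither reached a 2-fold change. The second probe set is at the floor on all arrays, so averaging it in shrinks the change by construction. Neither alternative could reverse the direction, so its being kept is no further evidence.

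*PT4* (*PHT1;4*, LOC4335115) encodes a carrier that takes up phosphate in roots and also acts in the embryo. Its single probe set had signals of 7.08, 10.5 and 7.58 on the MADS29OX arrays, against 55.8, 58.0 and 45.4 on the WT arrays. All MADS29OX arrays lay below the floor and all WT arrays above it. The mean was 8.38 ± 1.84 in MADS29OX and 53.1 ± 6.74 in WT leaves (SD, n = 3 each). The gene was at least 3.30-fold lower (log2 fold change of -1.72 at the floor, adjusted p = 0.000476 from limma), and the spread of the MADS29OX arrays does not enter that fit. As for *SPX4*, its probes may bind related transcripts, and no value is left once such probe sets are dropped.

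*PT8* (*PHT1;8*, LOC4348741), a high-affinity carrier, had signals of 10.3, 13.1 and 17.4 on the MADS29OX arrays, against 14.0, 14.1 and 13.7 on the WT arrays. Only 1 MADS29OX array passed the floor, and the MADS29OX range enclosed that of WT. No WT array did, so the fitted log2 fold change of 0.04 (adjusted p = 0.718 from limma) was set by the floor on 5 of the 6 arrays. It is neither a bound nor a measured fold, and without the floor it was -0.07. Its other probe sets lay below the floor, 1 at 10.3, 7.72 and 15.1 on the MADS29OX arrays and 12.1, 13.1 and 11.7 on the WT arrays, and 1 under 6 on all arrays.

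*PT2* (*PHT1;2*, LOC4331637), whose product is known in rice for moving phosphate from root to shoot, had signals of 5.91 to 5.93 on the MADS29OX arrays and 5.92 to 6.61 on the WT arrays. *PT3* (*PHT1;3*, LOC4348740) had 3 probe sets between 4.84 and 6.83 on the MADS29OX arrays and between 4.85 and 5.97 on the WT arrays. The growth-regulating factor *GRF4* (LOC4330436) had signals of 6.25, 6.91 and 6.21 on the MADS29OX arrays, against 6.22, 5.78 and 5.66 on the WT arrays. None of these 3 genes gave a level that could be compared.

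**Figure D3:**
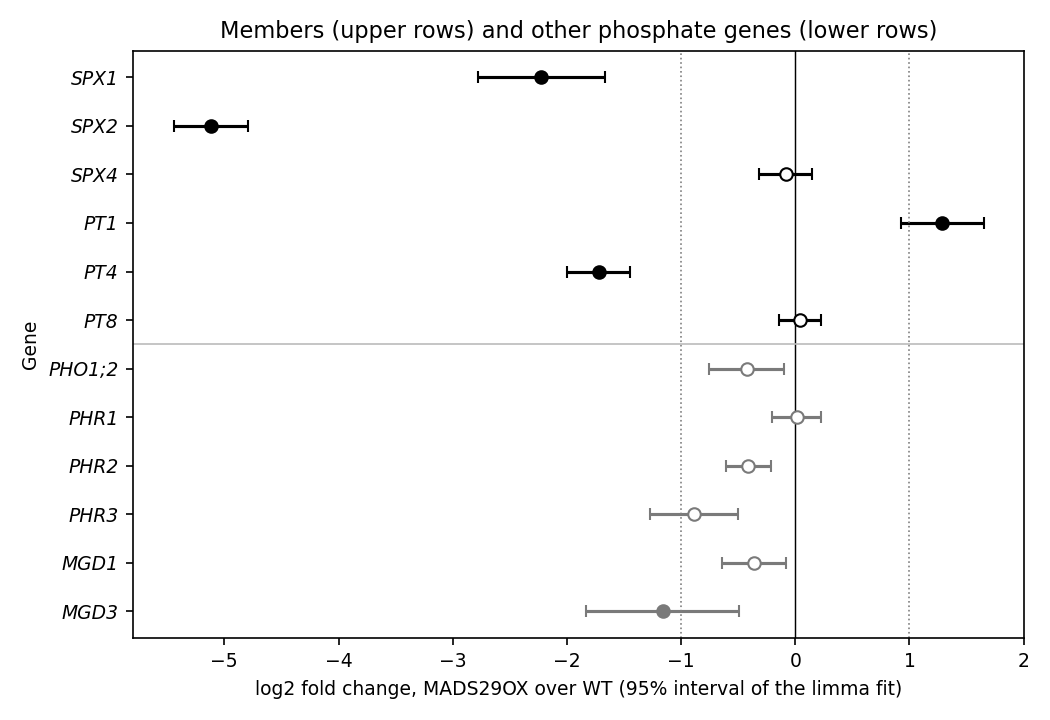
Log2 fold change of MADS29OX over WT with its 95% confidence interval for the tested members (black) and the tested genes of the other phosphate lists (grey), with filled points for called genes and dotted lines at 2-fold. *SPX2* lies at -5.12, *SPX1* at -2.22 and *PT1* at 1.29, while the values of *PT4* and *PHO1;2* are bounds set by the floor. *PT8* lay at or near the floor in both groups, and its value is no bound.

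Some of the transporter genes lie side by side in the rice genome. In the gene table *PT1* and *PT2* are separated by 1 gene, *PT12* is the direct neighbour of *PT1*, and *PT3* and *PT8* are direct neighbours of each other. Only *PT1* among these was above the floor on all arrays, and only with 1 of its 2 probe sets, so no comparison between neighbours was made.

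Of the 6 tested members, *SPX1*, *SPX2*, *PT1* and *PT4* had signals that did not overlap between the groups, which held for 45.9% of all tested genes. As with the calls, nothing particular to the members is read from this. Levels of different probe sets cannot be set against each other, so the members are compared only by their differences from WT.

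**Figure D4:**
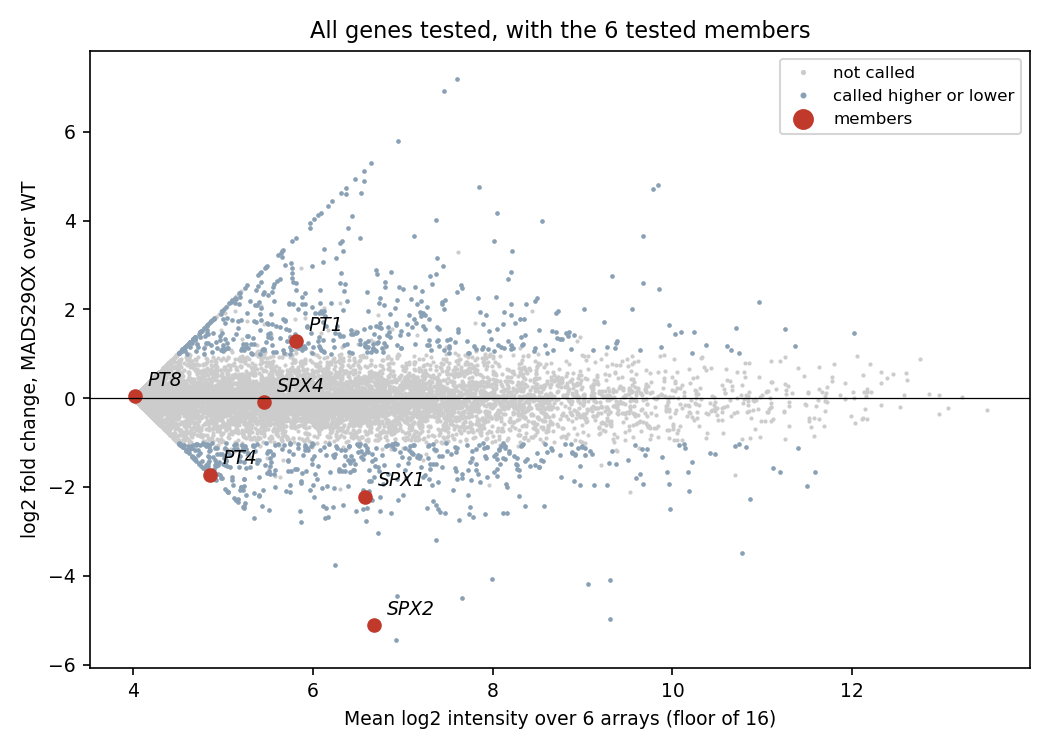
Mean log2 intensity over the 6 arrays against log2 fold change of MADS29OX over WT for the 10045 tested genes, grey where not called and blue where called, with the tested members in red. *SPX2* has rank 2 from the lowest of 10045, and *SPX4* and *PT8* lie near 0.

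Other genes that move, sense or recycle phosphate were taken from 5 lists, chosen with results of these data known. The gene table held 25 genes with the listed names, of which 13 had a probe set and 6 were tested. With limma, 1 gene was called lower and 0 were called higher, and at an unadjusted p under 0.05 the counts were 5 lower and 0 higher. Over all 10045 tested genes 2203 (21.9%) were lower and 1708 (17%) higher at that unadjusted p. Nothing particular to these 6 genes is read from the counts. Their median log2 fold change was -0.42, with *PHO1;2* at its bound, beside -0.01 over all tested genes. The 7 organellar *PHT4* transporter genes had no probe set with a single gene. The other PHT1 genes with a probe set, *PT6*, *PT7*, *PT11* and *PT12*, lay between 5.32 and 6.70 on the MADS29OX arrays and between 5.32 and 6.68 on the WT arrays, all below the floor. *PT11* is known as the carrier of roots colonised by mycorrhizal fungi.

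Among the regulators, *PHR2*, which encodes the transcription factor that SPX1, SPX2 and SPX4 bind, had signals of 131, 143 and 132 on the MADS29OX arrays, against 179, 189 and 173 on the WT arrays. The groups did not overlap, and the mean was 135 ± 6.85 in MADS29OX and 180.2 ± 8.10 in WT leaves (SD, n = 3 each). The log2 fold change was -0.41 (95% confidence interval -0.61 to -0.21, adjusted p = 0.0159 from limma), under the 2-fold limit, and the adjusted p lay between 0.0509 and 0.0731 when any 1 WT array was left out. A second probe set gave -0.38 (adjusted p = 0.098).

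*PHR1*, a related regulator, had signals of 92.7, 80.1 and 80.7 on the MADS29OX arrays, against 83.6, 84.9 and 82.3 on the WT arrays. The MADS29OX range enclosed that of WT, with a log2 fold change of 0.01 (95% confidence interval -0.20 to 0.23, adjusted p = 0.933 from limma). *PHR3*, another member of that family, had signals of 20.6, 9.16 and 8.51 on the MADS29OX arrays, against 30.9, 28.6 and 37.8 on the WT arrays. Its groups did not overlap, and the log2 fold change was -0.89 (adjusted p = 0.0110 from limma), under 2-fold with 2 of 3 MADS29OX arrays at the floor. Without MADS29OX replicate 1, the one above the floor, it was -1.01 (adjusted p = 0.00842 from limma), which is past the 2-fold limit. The MADS29OX arrays left in that fit were all set to the floor, so they add no spread. Other settings were weaker. With no floor it was -1.46 (adjusted p = 0.205 from limma), and with 16 added to each value -0.77 (adjusted p = 0.181 from limma). With a floor of 32 it was -0.08 (adjusted p = 0.548 from limma).

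*MGD3*, which encodes a synthase of the galactolipid MGDG, was the 1 gene of these lists called lower. Related enzymes in *Arabidopsis* supply galactolipids that replace phospholipids when phosphate is scarce. Its signals were 12.6, 31.8 and 21.2 on the MADS29OX arrays, against 49.2, 41.9 and 58.6 on the WT arrays, so the groups did not overlap. The log2 fold change was -1.16 (95% confidence interval -1.83 to -0.49, adjusted p = 0.0279 from limma). MADS29OX replicate 1 was below the floor, and raising it to the floor narrows the spread. The log2 fold change was -1.28 both with a floor of 8 (adjusted p = 0.0547 from limma) and with no floor (adjusted p = 0.255 from limma). The gene was called in neither. Of the 6 fits that leave out 1 array, the call held only in the one without MADS29OX replicate 2, where the log2 fold change was -1.42. Without MADS29OX replicate 1 it was -0.93, and without MADS29OX replicate 3 or WT replicate 1, 2 or 3 the adjusted p lay between 0.0671 and 0.105. *MGD1*, of the same enzyme family, had signals of 50.6, 61.9 and 53.1 on the MADS29OX arrays, against 70.1, 65.4 and 77.0 on the WT arrays, and did not pass the test (log2 fold change -0.36, adjusted p = 0.0662 from limma).

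*PHO1;2*, which encodes the SPX-domain protein that exports phosphate into the xylem of rice roots, had more than 1 probe set near the floor. The main one had signals of 7.42, 9.70 and 10.8 on the MADS29OX arrays, against 22.6, 24.6 and 17.8 on the WT arrays. All MADS29OX arrays were below the floor, and the value was at least 1.34-fold lower (adjusted p = 0.0660 from limma). The second, almost as bright on average, had signals of 15.7, 15.0 and 16.6 on the MADS29OX arrays, against 14.7, 15.8 and 14.7 on the WT arrays. Only 1 MADS29OX array passed the floor there, so this probe set gave no measured fold (adjusted p = 0.862 from limma). A further probe set of *PHO1;2*, and those of *PHO1;3* and *SPX5*, lay below the floor on all arrays.

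The genes whose log2 values followed those of each called member most closely over the 6 arrays were taken from the 1564 tested genes with a name. For *SPX1* these were the glutamine synthetase gene *GLN1-1* (Pearson's r = 0.998, log2 fold change -1.44), *PSD2* (0.995, -0.65) and *cpdk* (0.994, -1.27). For *SPX2* they were the MADS-box gene *MADS57* (0.998, at least 1.98-fold lower, with all MADS29OX arrays below the floor), *GH3.5* (0.998, -1.37) and *CPDII* (0.997, -1.16). For *PT1* they were *CAD8C* (0.991, 2.48), *LTP* (0.990, 0.14) and *SK1* (0.990, 1.74). For *PT4* they were *CLPB1* (1.00, at least 1.49-fold lower, with all MADS29OX arrays below the floor), the potassium channel gene *KCO1* (0.998, -1.77) and again *GH3.5* (0.997, -1.37). *PT4* and *CLPB1* were both set to the floor on all MADS29OX arrays, which by itself brings their correlation close to 1. *KCO1* was below the floor on 2 MADS29OX arrays, so the floor also shapes its correlation with *PT4* and its log2 fold change. The floor likewise shapes the correlation of *MADS57* with *SPX2*, which was below it on 2 MADS29OX arrays. All points share the same 6 arrays in 2 groups, so a gene that differs evenly between the groups reaches a high value, as *LTP* shows with a change well under 2-fold.

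**Figure D5:**
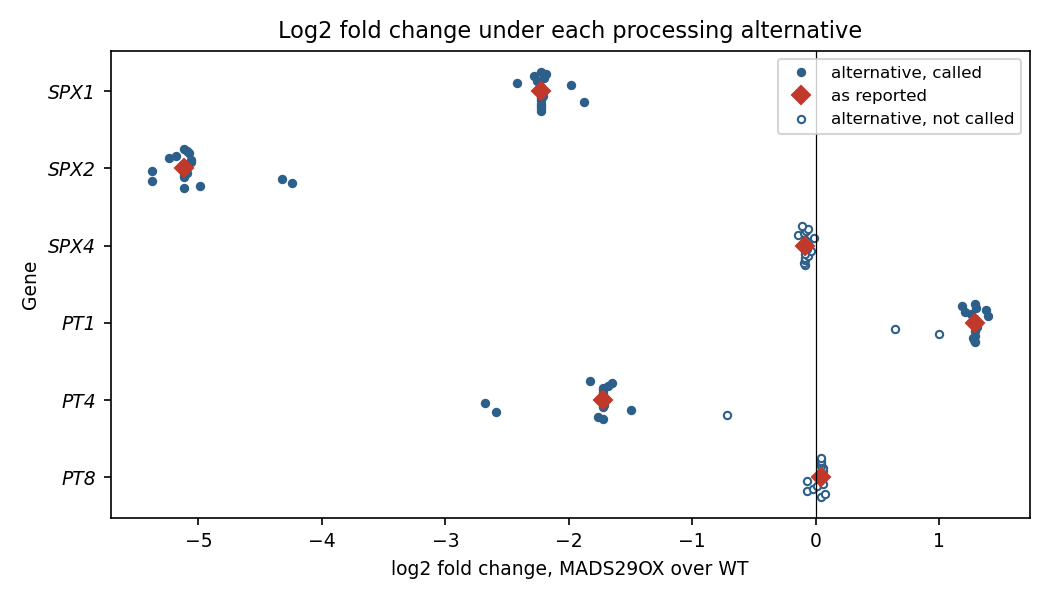
Log2 fold change of MADS29OX over WT for the tested members under each alternative processing, with filled points where the gene was called, open points where it was not, and a red diamond for the value reported here. *SPX1* lies between -2.42 and -1.88 and *SPX2* between -5.37 and -4.24, while *PT1* runs from 0.64 to 1.39 and *PT4* from -2.68 to -0.72.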

How the data were processed

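Total RNA of 3 MADS29OX and 3 WT leaf samples was hybridized to Affymetrix rice arrays. The deposited file gives linear intensities of 57381 probe sets on each array, and 123 of them are controls. How the authors corrected background, normalized and summarised them is not given in the sources used here, and a method that pulled arrays together would narrow their spread.

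Controls were left out, intensities under 16 were raised to 16, and log2 of the deposited intensity was taken. The 14238 probe sets with any array over that floor were fitted with lmFit and eBayes of limma 3.58.1 (R 4.3.3), with group as the only term. The other 43020 were not tested. The precision is limited by 3 arrays per group. *OsMADS29* was also compared by an exact 2-sided permutation test (p = 0.1, the smallest that 3 against 3 arrays allow).

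Probe sets were matched to genes through GEO's platform annotation, with 22436 tied to a single gene and 95 to several. Names and gene order are those of assembly ASM3414082v1, and tables were joined in Python 3.11.15. The array has no named build, so no coordinates are given. Named were *OsMADS29*, all members, up to 4 called genes per phosphate list (in a list with none, the 2 tested genes with the highest mean), and the 3 named genes most like each called member. *PHR3*, *MGD1*, *PHO1;3*, *SPX5*, *PT6*, *PT7*, *PT11*, *PT12* and the single markers *RBCS1*, *CAB2R*, *RCA*, *RBCS*, *GLO1*, *GLUA2* and *GLB1* were added after their values were seen. Members and lists were chosen with earlier results of these data known. Listed names with no gene in the table, the shoot meristem markers among them, were not analysed here. The fit was tested on simulated data. Alternatives covered the floor, log2 of the value plus 16, a filter on the mean, normalization, array weights, the replicate number as a block, the choice of probe set, the fold limit, the adjustment and leaving out each array.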

Additional observations from a re-analysis of the deposited data

How the results depend on the processing

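*SPX1* and *SPX2* were called lower under all 19 alternatives and *PT1* was called higher under 17, all with the same direction. Not every alternative could change a call. Dropping the fold limit cannot remove one, and *SPX1* and *SPX2* have 1 probe set each, so the choice of probe set left their values unchanged. With 16 added to each value before log2, and with a gene's probe sets averaged, 0 members were called higher, against 1. The averaged value takes in the *PT1* probe set that was at the floor on all arrays. *PT4* was called under 16 of the 17 that gave it a value, since it dropped out with the filter on the mean and without probe sets ending in _x_at or _s_at, so that 2 members were called lower there, against 3. It was lost with a floor of 32 (log2 fold change -0.72, adjusted p = 0.00673), where the bound itself is under 2-fold by construction. Leaving out 1 array kept all 4 member calls, with log2 fold changes of -2.42 to -1.99 for *SPX1*, -5.24 to -5.06 for *SPX2*, 1.18 to 1.39 for *PT1* and -1.83 to -1.65 for *PT4*. All MADS29OX arrays of *PT4* were set to the floor, so leaving 1 of them out could not move its log2 fold change from -1.72. *SPX4* and *PT8* were called under none of theirs, and *PT8* kept its direction in 13 of 16. In the reported fit the sign of *PT8* rests on the 1 array above the floor, so nothing is read from that count.

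Of the other phosphate genes, 1 was called, and lower. A floor of 8 gave 2 (*PHO1;2* and *PHR3*), and no fold limit gave 3. A floor of 32, no floor, 16 added to each value, a filter that drops means under percentile 40, and an adjustment over all probe sets, chosen after seeing the data, gave 0, and leaving out 1 array gave 0 to 1. The gene called without MADS29OX replicate 1 was *PHR3* and not *MGD3*. Over all genes, 1012 were called, against 431 with 16 added to each value and 2667 once the fold limit was dropped. The causes were not tested.

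Samples with the same replicate number did not deviate together (correlations of 0.034, -0.045 and -0.127), so the numbers were not used to pair samples. With the replicate block, 0 of the other phosphate genes were called, since *MGD3* had an adjusted p of 0.0647, and all 4 member calls held (*SPX1* 0.0134, *SPX2* 0.00439, *PT1* 0.0227, *PT4* 0.00804). Signals below the floor, as those of *SPX3* and *PT2*, do not show that a gene is silent.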
